A study of Mus musculus with 16 samples.

Results

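The genes described here have Agilent probes that were well above background on all 4 Npc1-/- arrays and on none of the 4 wild-type arrays of mouse cerebellum at 3 weeks of age. There were 33 such probes among 41174 that were not controls (0.0801%), and they stood for 32 of the 27670 genes and transcripts that the array names. Of these, 30 were named genes (31 probes, with Cd36 represented by 2), 1 was the cDNA clone BC089618 and 1 was an unnamed sequence, NAP093165-001. The members were chosen by the detection flags, which come from the same contrast as the signals, so their values are given as a description and no genotype test is reported for them. The opposite pattern, above background on all 4 wild-type and no Npc1-/- array, was met by 0 probes (0%), a count that rests on wild-type replicate 2, as set out with the thresholds.

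Npc1-/- mice came from heterozygous breeding of the BALB/cNctr-Npc1m1N/J line on a BALB/c background, and the controls were wild-type (Npc1+/+) mice with the same strain label. Cerebella of 4 mice per genotype were snap-frozen, with no treatment named, and total RNA of the whole cerebellum was labelled with Cy3 (500 ng, 8 Agilent arrays) or biotin (200 ng, 8 Illumina arrays). The labels do not say which mouse was hybridised to which array, and they give no sex. Npc1 itself, measured outside the member set, had levels of -2.60 to -2.32 on the Npc1-/- arrays and -0.64 to -0.37 on the wild-type arrays (log2 fold change -1.99, limma adjusted p = 0.00045). A level throughout is the log2 of the background-subtracted, detrended intensity minus the 75th percentile of its array, so 0 is the 75th percentile. All 11 cerebellar neuron markers were above background on all 8 arrays.

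Npc1 is a lysosomal membrane protein that exports cholesterol. In Niemann-Pick disease type C, caused by its loss, cholesterol and glycolipids build up in lysosomes and Purkinje cells of the cerebellum die. Microglia, the resident macrophages of the brain, take up debris and lipid and switch on a set of damage-associated genes in many neurodegenerative conditions. Activated microglia and other macrophages also release chemokines, small secreted proteins that attract leukocytes through G protein-coupled receptors, and respond to interferon, a secreted antiviral signal. In whole tissue, a larger number of cells of a type and more RNA per cell cannot be told apart.

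Promoters of 3 members are shown because the proteins they make represent the chemokine, acute-phase and matrix protease groups below, and because each holds a match to a motif bound by factors of immune cells. Each is the 250 bases before the RefSeq transcription start in GRCm38.p6, printed 5′ to 3′ on the strand of the gene, with matches in capitals. The window of Cxcl10 is chr5:92348890-92349139 (minus strand), that of Saa3 is chr7:46715677-46715926 (minus strand) and that of Mmp12 is chr9:7344147-7344396 (plus strand). Mmp12 has another annotated start, not printed here.
Cxcl10: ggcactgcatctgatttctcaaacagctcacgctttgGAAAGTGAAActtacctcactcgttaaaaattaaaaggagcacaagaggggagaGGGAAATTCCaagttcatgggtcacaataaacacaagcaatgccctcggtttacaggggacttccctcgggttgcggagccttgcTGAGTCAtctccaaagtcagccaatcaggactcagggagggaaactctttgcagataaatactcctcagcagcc
Saa3: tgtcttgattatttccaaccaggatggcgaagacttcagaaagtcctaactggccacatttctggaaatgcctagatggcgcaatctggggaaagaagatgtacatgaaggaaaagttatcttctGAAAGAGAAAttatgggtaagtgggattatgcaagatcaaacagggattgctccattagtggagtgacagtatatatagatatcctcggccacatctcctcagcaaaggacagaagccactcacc
Mmp12: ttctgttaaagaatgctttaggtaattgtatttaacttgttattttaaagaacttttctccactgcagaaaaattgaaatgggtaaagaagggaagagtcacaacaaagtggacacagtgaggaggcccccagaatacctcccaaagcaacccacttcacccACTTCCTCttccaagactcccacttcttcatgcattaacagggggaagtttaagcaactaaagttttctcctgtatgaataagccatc
Motifs were searched on both strands of 32851 RefSeq promoters, and shares of all promoters below refer to this searched set. Of the 32 members, 26 had a promoter there (29 windows). The core of the interferon-stimulated response element, GAAA and GAAA with any 2 bases between, was found in Cxcl10, Saa3 and Capn6 and in 2.98% of all promoters. The kappa B element was searched in 2 forms, which can overlap. Its form GGGAA, any base, TTCC was found in Cxcl10 and in 0.283% of all promoters, and its form GGGA, any base, TTTCC in no member and in 0.356% of all. The PU.1 site core GAGGAAGT was found in Mmp12, on the minus strand, and in 2.44% of all promoters. The AP-1 site TGANTCA was found in Cd84, Cxcl10, C3ar1, Mmp12, Hal and Capn6, against 6.75% of all promoters, and the match in Mmp12 lay in the window of its other start. The CLEAR core TCACGTGA, bound by TFEB, was found in no member and in 0.785% of all. Counted by gene and not by promoter, the shares were 3.46%, 0.333%, 0.414%, 2.79%, 7.82% and 0.907%, in the order given. These matches describe letters in the window and are no evidence of binding.

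What above background meant differed between arrays. On each array a probe was flagged when its background-subtracted intensity exceeded 5 times the additive error that the scanner software had estimated for that array. This threshold was 15.6, 19.9, 19.4 and 27.6 intensity units on Npc1-/- replicates 1 to 4, and 25.0, 60.5, 17.05 and 17.4 on wild-type replicates 1 to 4. Wild-type replicate 2 stood apart, with a threshold 2.19 times the highest of the other 7 arrays and 22182 probes above background, against 25958 to 28137 on the others. Of the 3343 probes above background on all 4 Npc1-/- and 3 wild-type arrays, 3277 were missing on wild-type replicate 2.

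**Figure D1:**
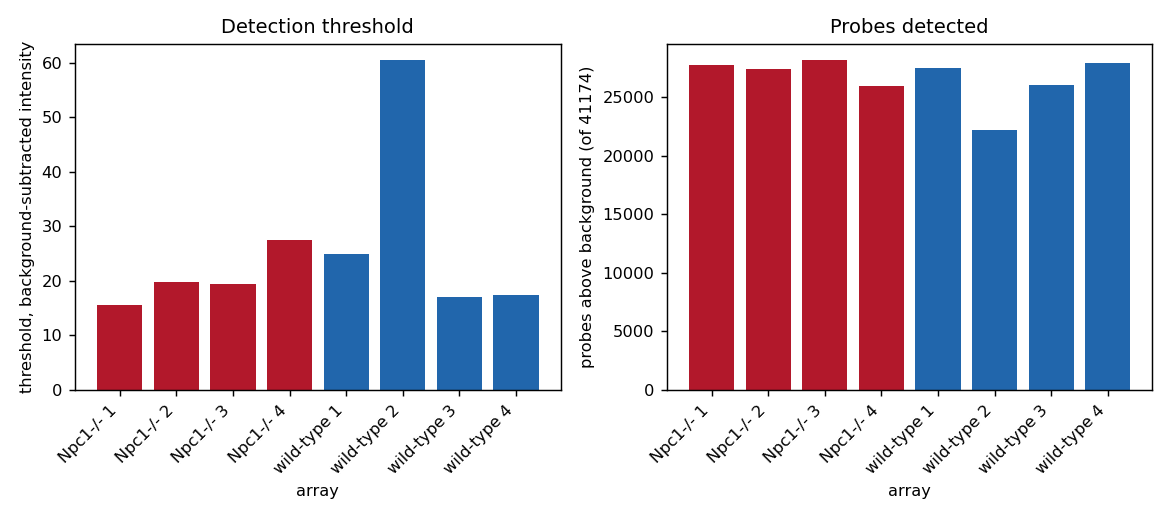
Left, detection threshold of each array in background-subtracted intensity units; right, number of the 41174 probes above background on each array; red bars are Npc1-/- and blue bars wild-type arrays, numbered by replicate. Wild-type replicate 2 has the highest threshold, 60.5, and the fewest probes above background, 22182.

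The member count moved with this array and with others. Leaving out wild-type replicate 2 gave 36 probes above background only in Npc1-/- and 20 only in wild type. Judging that array at the highest threshold of the others left 26 members and gave 2 probes of the opposite pattern. The 7 members lost in that setting were probes of Ifi44l, Cd84, Cd36, Hoxa2, Mpeg1, Hoxb4 and Icam1, whose signal on wild-type replicate 2 would have been above background on any other array. Judging every array at the threshold of wild-type replicate 2 gave 31 probes, of which only Gpnmb, Cd84 and BC089618 were among the 33, and 0 of the opposite pattern. The count also rose without Npc1-/- replicate 4 (83), wild-type replicate 4 (78) or wild-type replicate 1 (55), and the opposite pattern had 1 probe without Npc1-/- replicate 3, wild-type replicate 1 or wild-type replicate 3. Leaving out an array relaxes the rule, so neither count could fall, and all 33 members were kept each time.

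Below the threshold, the scanner software replaced very weak signals with a surrogate value near the additive error of the array, so such values have no order. No Npc1-/- value of a member was a surrogate, whereas 34 of the 132 wild-type values were: 19 on wild-type replicate 2, 7 on replicate 3 and 4 each on replicates 1 and 4. The median surrogate level was -5.96 on wild-type replicate 2 and -8.04 to -7.85 on the other wild-type arrays. Wild-type levels near these values are limits of the assay, and 2 members, Mmp12 and Cst7, were surrogates on all 4 wild-type arrays.

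**Figure D2:**
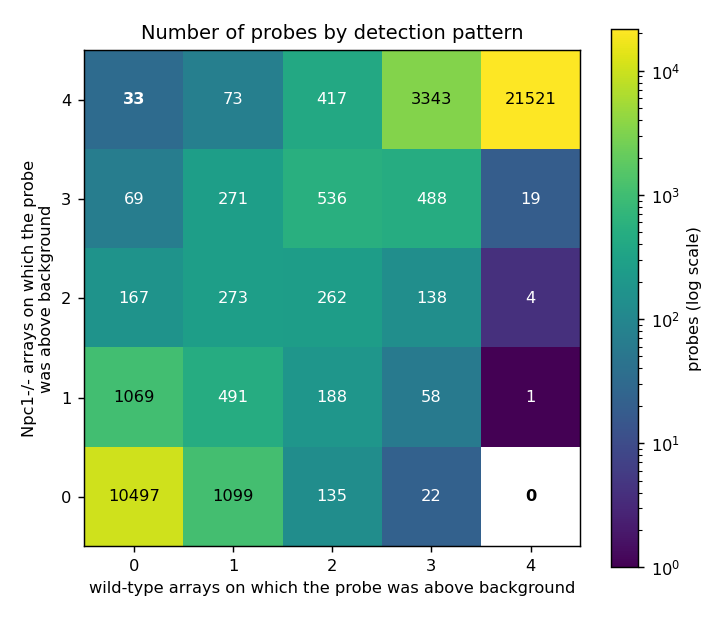
Number of probes by how many of the 4 wild-type arrays (horizontal) and 4 Npc1-/- arrays (vertical) had them above background, coloured on a log scale. The corner with 4 Npc1-/- and 0 wild-type arrays holds the 33 members, the opposite corner holds 0, and the cells next to the members hold 73 (1 wild-type array) and 69 (3 Npc1-/- arrays).

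Many members lay close to the thresholds. On the weakest Npc1-/- array the signal was under 110% of the threshold for 9 of the 33 and over 200% for 6. On the highest wild-type array it was over 90% of the threshold for 9. Just inside, Ifi204 reached 100.2%, Ch25h 100.3% and Hoxb4 102.8% of the threshold on the weakest Npc1-/- array. The wild-type signals nearest to it were 99.3% for Cd36 (probe A_51_P375146), 96.8% for Tmem106a and 96.7% for Mpeg1. Just outside, with 4 Npc1-/- arrays and 1 wild-type array, were Pkd2l1 (101.3%), Adamts19 (101.9%) and Sp100 (102.7%), all on wild-type replicate 1. With 3 Npc1-/- arrays and 0 wild-type arrays, Cnr2 missed at 98.9% and Slfn10-ps at 94.0% on Npc1-/- replicate 4, and Cd38 at 93.9% on replicate 2.

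Over the 33 members, Npc1-/- minus wild-type differences of mean level ran from 0.54 to 4.75 with a median of 1.63, against a median of -0.06 over all probes. Levels of the 4 Npc1-/- arrays lay above those of all 4 wild-type arrays for 25 members. Over the probes with a value on every array 1.77% did so, but since the same contrast chose the members nothing is read from their share. The 8 whose levels overlapped were Mpeg1, Ifi44l, Icam1, Saa3, Hoxa2, Cd36 (A_51_P375146), Hoxb4 and NAP093165-001. None overlapped without wild-type replicate 2 (3.55% of all probes had every Npc1-/- level above the levels of those 3 arrays), and the median difference was 1.97. Within slides 2, 3 and 4, each with 1 wild-type array, the median was 2.21, 1.12 and 1.81, and 33, 27 and 33 members were higher in Npc1-/-; slide 3 held wild-type replicate 2. After normexp background correction, which here added 50 intensity units to each signal, and quantile normalization the median was 0.35. An added constant shrinks log2 differences between dim signals, so this median is not on the scale of the others. What part the constant had in the fall was not tested.

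Because wild-type signals were not well above background, a fold is given as a bound. The mean of the 4 Npc1-/- levels was set against the mean, over the 4 wild-type arrays, of the higher of the probe's own level and the lowest level of any probe above background on that array. This floor was -5.74, -3.90, -5.85 and -6.04 on wild-type replicates 1 to 4. It is the level of the dimmest flagged probe after detrending and not the threshold itself, so "at least" means against this floor and is no strict limit. The bound was above 0 on the log2 scale for 32 members (median 0.71) and above 2-fold for 9. Without wild-type replicate 2, all 33 had a bound above 0 and 22 were above 2-fold. Probe positions are in mm7, the build of the files.

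**Figure D3:**
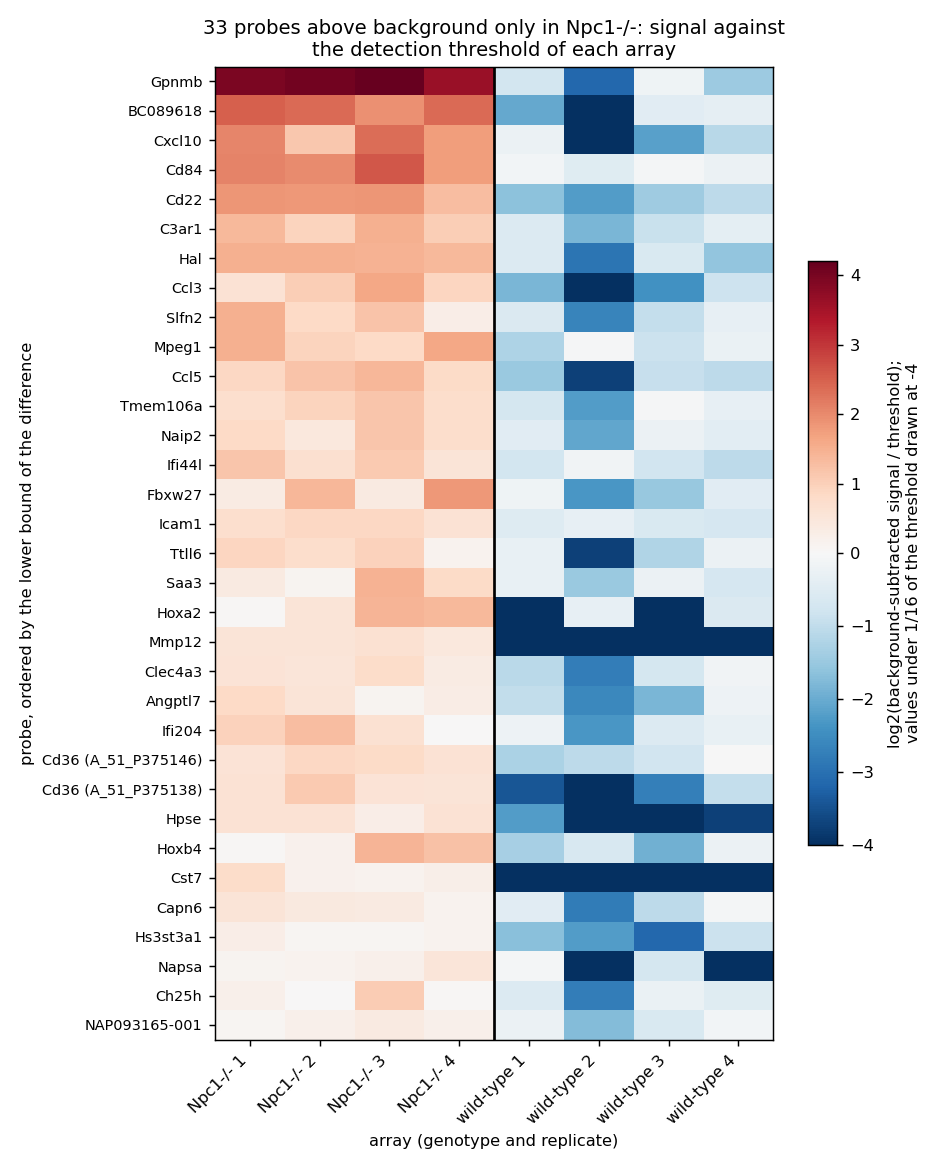
Background-subtracted signal of each of the 33 probes as log2 of its ratio to the detection threshold of the array, with the 4 Npc1-/- arrays left of the line and the 4 wild-type arrays right; 0 is the threshold, and values under 1/16 of it are drawn at -4. All Npc1-/- cells lie above 0 and all wild-type cells below it by the rule, Gpnmb stands farthest above it, and many members lie near 0.

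Among secreted chemokines, 3 members were found. Cxcl10, an interferon-induced ligand of the receptor Cxcr3 on T cells and natural killer cells (chr5:92334002-92334061), had levels of -3.44, -4.03, -3.17 and -3.17 on Npc1-/- replicates 1 to 4 and -5.56, -5.73, -7.58 and -6.70 on wild-type replicates 1 to 4. The lowest Npc1-/- level was above the highest wild-type level, and Cxcl10 was at least 3.70-fold higher in Npc1-/- (5.15-fold without wild-type replicate 2). Ccl3, a chemokine that macrophages and microglia release (chr11:83717761-83717820), had levels of -4.81, -4.15, -3.82 and -3.93 in Npc1-/- and -7.13, -5.74, -7.72 and -6.34 in wild type. Npc1-/- replicate 1 was the lowest of its group yet above every wild-type array, and the bound was at least 2.31-fold. Ccl5, which attracts T cells and monocytes (chr11:83595850-83595905), had levels of -4.78, -4.27, -4.31 and -4.30 in Npc1-/- and -7.00, -5.96, -6.57 and -6.81 in wild type, at least 1.96-fold higher.

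BC089618, a cDNA clone with no gene name in the reference table, had levels of -3.36, -3.27, -3.98 and -2.88 in Npc1-/- and -7.76, -6.13, -6.29 and -6.34 in wild type. Its bound, at least 4.03-fold, was exceeded among members by that of Gpnmb alone. The probe spans chr11:83774846-83776030, between the probes of the chemokine gene Ccl4 and of Wfdc18. Chromosome 11 held 8 of the 33 members (24.2%) and 7.34% of all probes with a position. In the 624167 bases of chr11:83151864-83776030, which run from Slfn2 to BC089618 and hold Ccl5 and Ccl3, 4 of the 29 probes were members, 8 were above background on all 8 arrays and 11 on none. These neighbours were picked out after their positions were seen.

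Genes of the damage-associated microglia list gave 3 members. Gpnmb, a transmembrane glycoprotein of phagocytes under lysosomal load (chr6:49016437-49016496), had levels of -1.98, -1.66, -1.78 and -1.68 in Npc1-/- and -6.47, -6.13, -6.02 and -7.48 in wild type. No other member was as far above its thresholds, and Gpnmb was at least 12.2-fold higher (17.2-fold without wild-type replicate 2), with a mean level of -1.78 ± 0.15 (SD, n = 4) in Npc1-/-. The wild-type values, with mean -6.52, were all below the detection threshold and included a surrogate on replicate 2. On wild-type replicates 1 to 4 the background-subtracted signal was 60.3%, 11.3%, 88.8% and 36.6% of the threshold. Cst7, an inhibitor of cysteine cathepsins (chr2:150319611-150319670), had levels of -4.79, -5.22, -5.45 and -4.74 in Npc1-/-, and its wild-type values of -7.84, -5.95, -7.94 and -7.98 were all surrogates. The bound of Cst7 was at least 1.26-fold. Mpeg1, which encodes the pore-forming protein perforin-2 of macrophages (chr19:12143330-12143389), had levels of -4.29, -4.63, -4.96 and -3.58 in Npc1-/- and -6.86, -3.73, -6.55 and -6.11 in wild type. Wild-type replicate 2 lay above 3 of the 4 Npc1-/- arrays for this probe.

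Receptors and adhesion molecules of myeloid cells were the next group. Cd22, an inhibitory receptor that binds sialic acid on B cells and on microglia (chr7:27806351-27806410), had levels of -4.06, -3.87, -4.10 and -3.99 in Npc1-/- and -7.37, -6.03, -7.26 and -7.06 in wild type, at least 2.60-fold higher. Cd84, a self-binding receptor of the SLAM family on leukocytes (chr1:171856548-171856607), had levels of -3.79, -3.68, -3.30 and -3.47 in Npc1-/- and -5.82, -4.29, -5.89 and -6.22 in wild type. The groups did not overlap, the bound was at least 3.54-fold, and Cd84 was among the 7 probes that counted as members through the threshold of wild-type replicate 2. C3ar1, the receptor of the complement fragment C3a (chr6:122885185-122885244), had levels of -4.12, -4.32, -3.99 and -3.86 in Npc1-/- and -5.96, -5.37, -6.43 and -5.95 in wild type, at least 2.43-fold higher.

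Clec4a3, a C-type lectin receptor of myeloid cells (chr6:123006600-123006659), had levels between -4.84 and -4.55 in Npc1-/- and between -6.44 and -5.71 in wild type, at least 1.501-fold higher. Icam1, the ligand on endothelium and glia to which leukocyte integrins bind (chr9:20904404-20904463), had levels of -4.88, -4.50, -4.71 and -4.40 in Npc1-/- and -5.97, -3.86, -6.15 and -6.30 in wild type. Here wild-type replicate 2 was the highest of all 8 arrays, and the other wild-type arrays were below every Npc1-/- array.

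Members tied to interferon, innate sensing and the acute phase formed another group. Slfn2, an interferon-induced regulator of T cell and monocyte quiescence (chr11:83151864-83151923), had levels of -3.93, -4.27, -4.22 and -4.50 in Npc1-/- and -5.82, -5.69, -6.31 and -5.83 in wild type, at least 2.15-fold higher. Ifi44l, an interferon-stimulated gene that the files name H28 (chr3:151659730-151659789), had levels of -4.42, -4.74, -4.51 and -4.51 in Npc1-/- and -6.22, -3.69, -6.31 and -6.72 in wild type. Again wild-type replicate 2 was the highest of all 8 arrays and the other wild-type arrays were below every Npc1-/- array. Ifi204, a nuclear protein of the interferon-induced p200 family (chr1:173727972-173728031), had levels between -5.28 and -4.39 in Npc1-/- and between -6.38 and -5.91 in wild type, at least 1.34-fold higher. Its family has several similar genes, so the signal may include their transcripts, and this was not tested.

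Naip2, a cytosolic sensor of bacterial secretion proteins that the files name Birc1b (chr13:97215683-97215742), had levels between -4.76 and -4.14 in Npc1-/- and between -5.94 and -5.57 in wild type, at least 1.82-fold higher. It too has near copies in the genome. Saa3, an acute-phase serum amyloid protein made by macrophages and adipocytes (chr7:42888862-42888921), had levels of -5.23, -5.29, -4.15 and -4.19 in Npc1-/- and -5.75, -5.05, -5.81 and -6.34 in wild type. Npc1-/- replicates 3 and 4 were above every wild-type array, and replicates 1 and 2 lay below wild-type replicate 2.

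Matrix and lipid genes followed. Mmp12, the macrophage metalloelastase (chr9:7352125-7352640), had levels of -4.96, -4.84, -4.90 and -4.46 in Npc1-/-, while all 4 wild-type values were surrogates (-7.75, -5.83, -7.85 and -7.93), and the bound was at least 1.51-fold. Cd36, a scavenger receptor for oxidised lipoproteins and long-chain fatty acids, was a member through 2 probes. Probe A_51_P375138 (chr5:16796811-16799243) had levels of -5.30, -4.60, -5.37 and -4.71 in Npc1-/- and -8.04, -6.12, -8.15 and -6.96 in wild type. Probe A_51_P375146 (chr5:16796301-16796360) had levels of -5.27, -4.72, -5.07 and -4.62 in Npc1-/- and -6.89, -4.77, -6.50 and -5.87 in wild type. The first probe separated the genotypes and the second did not, because wild-type replicate 2 lay among the Npc1-/- arrays, and their bounds were at least 1.31-fold and 1.34-fold.

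Ch25h, which makes the signalling oxysterol 25-hydroxycholesterol and is induced by interferon in macrophages (chr19:34175232-34175291), had levels of -5.51, -5.48, -4.68 and -5.05 in Npc1-/- and -6.11, -5.95, -5.92 and -6.20 in wild type. The gap between the groups was narrow, with a bound of at least 1.15-fold. Hal, the histidine-degrading enzyme of liver and skin (chr10:93075295-93075354), had levels of -4.30, -4.09, -4.38 and -3.87 in Npc1-/- and -6.18, -6.07, -6.35 and -7.48 in wild type. The groups of Hal were well apart, at least 2.34-fold.

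Hoxa2 and Hoxb4 encode transcription factors that pattern the hindbrain. Hoxa2 (chr6:52125851-52125910) had levels of -5.74, -5.06, -4.37 and -3.76 in Npc1-/- and -7.97, -4.06, -8.06 and -6.44 in wild type. Hoxb4 (chr11:96429246-96429305) had levels of -5.89, -5.51, -4.54 and -4.08 in Npc1-/- and -7.04, -4.44, -7.72 and -6.23 in wild type. For both, the level on wild-type replicate 2 lay between those of Npc1-/- replicates 3 and 4. The signal there was under the threshold of that array, at 80.1% of it for Hoxa2 and 63.9% for Hoxb4. Among all 49 Hox probes, a list drawn up after these values were seen, 12, 17, 18 and 16 were above background on Npc1-/- replicates 1 to 4 and 5, 12, 3 and 10 on wild-type replicates 1 to 4, and 27 were on no array. Hoxb5, not a member and chosen in the same way, had levels of -5.08, -1.41, -0.26 and 0.15 in Npc1-/- and -7.77, -0.12, -7.91 and -5.51 in wild type. For all 3 genes, wild-type replicate 2 thus lay between Npc1-/- replicates 3 and 4, and Npc1-/- replicate 1 was the lowest of its group. Why the arrays differed was not tested.

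The remaining members belonged to none of the fixed lists. Neither did BC089618, Clec4a3, Icam1, Naip2, Saa3, Hal, Hoxa2 and Hoxb4, which were placed above by what is known of them. Tmem106a, a macrophage membrane protein (chr11:101699809-101699868), had levels between -4.76 and -4.20 in Npc1-/- and -6.13 and -5.58 in wild type, at least 1.84-fold higher. Ttll6, a tubulin polyglutamylase of cilia (chr11:96274404-96274463), had levels between -4.77 and -4.55 in Npc1-/- and -6.69 and -5.71 in wild type, at least 1.64-fold higher. Fbxw27, an F-box gene that the files name 1700124P09Rik (chr9:109466704-109466763), had the largest SD within Npc1-/- among members, with levels of -5.48, -4.22, -5.45 and -3.36 in Npc1-/- and -5.86, -6.11, -7.29 and -6.33 in wild type.

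To account for all members, the other 5 named genes are Angptl7, Hpse, Capn6, Hs3st3a1 and Napsa. Hpse encodes heparanase, which cleaves heparan sulfate chains of the matrix, and Hs3st3a1 an enzyme that sulfates those chains. Their bounds ran from 1.16-fold for Napsa, an aspartic protease, to 1.48-fold for Angptl7, a secreted angiopoietin-like protein. NAP093165-001 had levels of -5.79, -5.42, -5.55 and -5.09 in Npc1-/- and -5.94, -5.56, -6.42 and -6.08 in wild type. The groups overlapped, and with its bound below 0 no fold is given.

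Whether the transcript was measurable in wild type could be asked with other probes of the same gene. The files name 12 such probes outside the members for 11 genes. The other 19 named genes had no probe beyond those that are members, of which Cd36 had 2. The further probe named for Cst7 lies on the opposite strand to its member probe and is left aside. Mpeg1 was above background on all 8 arrays with its other probe, at 2.57, 2.51, 2.44 and 2.81 in Npc1-/- and 0.04, 0.48, 0.33 and 0.35 in wild type, 4.86-fold higher by the means. Icam1 was above background on all 8 arrays too, at -1.55, -1.47, -1.28 and -1.05 in Npc1-/- and -2.64, -2.43, -2.99 and -2.51 in wild type, 2.46-fold higher. With these probes wild-type replicate 2 was the highest wild-type array for both genes and lay below every Npc1-/- array.

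Ccl5 was above background on 3 wild-type arrays with its other probe, at -2.30, -2.32, -2.38 and -2.32 in Npc1-/- and -3.87, -4.60, -4.45 and -4.05 in wild type, at least 3.34-fold higher. For Ifi204, another probe was above background on 3 wild-type arrays and a further probe on 1, at least 2.10-fold and 1.52-fold higher in Npc1-/-. The other probe of Ifi44l was above background on 1 wild-type array and at least 1.83-fold higher in Npc1-/-. So for these 5 genes the pattern of detection only in Npc1-/- belonged to the probe, and the transcript was detected in wild type by another. The pattern of the member probes also rested on the flag used. With the positive-and-significant flag in its place, only Cst7 and Mmp12 of the 33 kept it. The other probe of Tmem106a was above background on 3 Npc1-/- and 0 wild-type arrays. For C3ar1, Capn6, Cd22 and Gpnmb the other probe was above background on no array. These probes share arrays with the members, and no test was made.

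**Figure D4:**
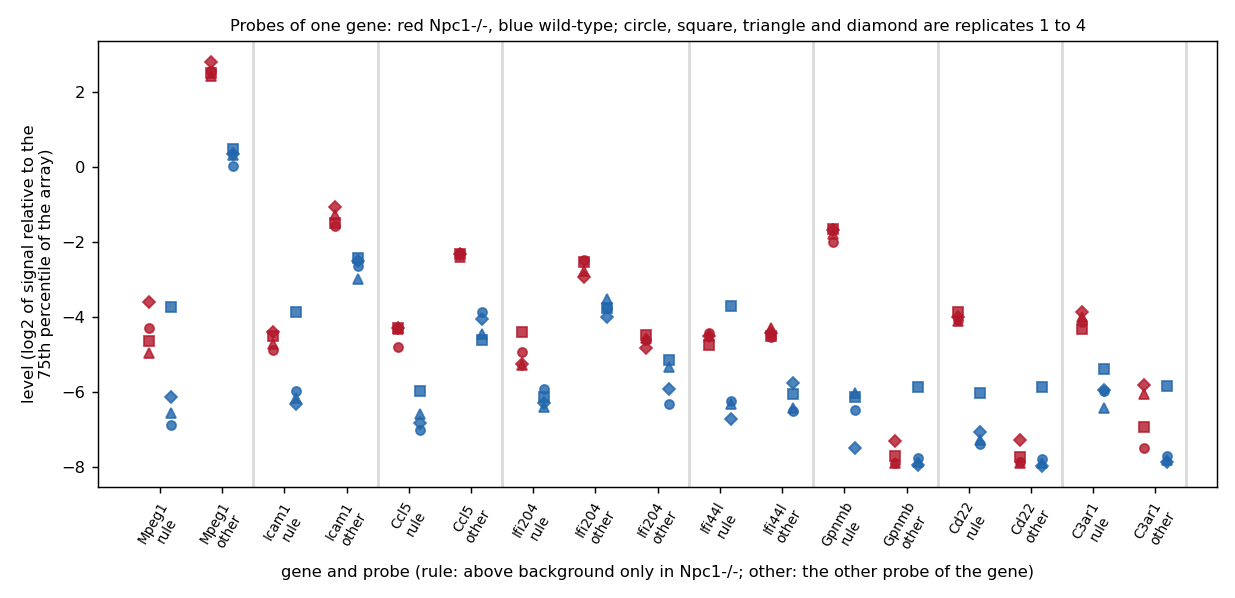
Levels, in log2 units from the 75th percentile of each array, of the member probe and of each other probe for 8 genes, red for Npc1-/- and blue for wild type, with a symbol for each replicate. With their other probes Mpeg1 and Icam1 were above background on all 8 arrays, whereas the other probes of Gpnmb, Cd22 and C3ar1 were above background on none.

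Genes without a member probe could be tested with limma over all 17983 genes that 4 or more of the 8 arrays had detected. That fit also held the 32 genes with a member probe. At an adjusted p under 0.05, 132 genes (0.734%) were higher and 6 (0.0334%) lower in Npc1-/-. Of the 132, 115 were among the 17951 genes without a member probe. The rest hold a member probe, chosen on this contrast, and nothing is read from their calls. Counts over all genes, here and with an array left out, include such calls. Higher genes numbered 63, 58 and 52 when Npc1-/- replicates 1, 2 and 4 were left out in turn and 82 when wild-type replicate 4 was; lower genes numbered 2, 2, 3 and 3 when each Npc1-/- replicate was left out. The 10 lists of related pathways held 15 member genes and 184 other tested genes. Of those others, 41 rose and 0 fell (22.3% rose), with a median log2 fold change of 0.42 against -0.02 over all genes, or 0.28 after normexp and quantile normalization. The lists were chosen with earlier results of these data known, so these counts are a description and nothing is read from the share that rose. The number that rose was 21 with slide as a block, where the median log2 fold change was again 0.42. The number was 24, 24 and 22 when Npc1-/- replicates 1, 2 and 4 were left out in turn.

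Among other damage-associated microglia genes, 8 of 22 rose, or 5 with slide as a block. Lyz2, lysozyme of macrophages, rose 8.20-fold (log2 3.03 ± 0.19 SE, limma adjusted p = 0.00045), from levels of 0.44, 1.07, 1.39 and 0.99 in wild type to 4.03, 4.08, 3.78 and 4.14 in Npc1-/-. Itgax, the integrin Cd11c, rose 9.60-fold (3.26 ± 0.51, limma adjusted p = 0.0296), with 1 wild-type array, replicate 2, above background. That call was lost in the fit blocked by slide (log2 2.88, limma adjusted p = 0.186) and without any array but wild-type replicate 2 (0.0773 to 0.110). Of the myeloid receptors, 2 of 17 rose: Pirb 7.44-fold (2.89 ± 0.22, limma adjusted p = 0.00092), above background on 3 wild-type arrays, and Cd300lf at least 3.82-fold (2.42 ± 0.15, limma adjusted p = 0.00045), above background on 2. Both are receptors of myeloid cells that carry inhibitory signals.

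Of the interferon-stimulated genes, 14 of 31 rose, with a list median of 1.03 (0.63 after normexp and quantile normalization), or 9 with the slide blocked or Npc1-/- replicate 2 or 4 left out. Ifi44, the neighbour in name and sequence family of Ifi44l, rose at least 3.10-fold (fitted log2 2.08 ± 0.25, limma adjusted p = 0.00738), above background on 1 wild-type array. Oasl2, an oligoadenylate synthetase-like protein, rose 3.28-fold (1.71 ± 0.12, limma adjusted p = 0.00053), from -2.74 to -2.38 in wild type to -0.98 to -0.76 in Npc1-/-.

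Of the complement and Fc receptor genes, 10 of 18 rose, with a list median of 1.07. The count was 2, 2 and 1 without Npc1-/- replicates 1, 2 and 4, 4 without wild-type replicate 4, and 3 with slide as a block. C4b, a component of the classical complement cascade, rose 4.03-fold (2.01 ± 0.19, limma adjusted p = 0.00262; 0.0866 with slide as a block). C3, the precursor of the fragment that C3ar1 binds, rose 2.78-fold (1.47 ± 0.22, limma adjusted p = 0.0261). The call for C3 was lost in the fit blocked by slide (log2 1.41, limma adjusted p = 0.186) and without any array but wild-type replicate 2 (0.0637 to 0.0997).

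Of the chemokines and receptors, 3 of 15 rose, or 1 without wild-type replicate 4 and 1 after normexp and quantile normalization. Ccl2, which attracts monocytes through Ccr2, rose at least 3.47-fold (fitted log2 2.24 ± 0.32, limma adjusted p = 0.0195), above background on 3 wild-type arrays. Its call was lost with the slide blocked (log2 2.24, limma adjusted p = 0.164) and when Npc1-/- replicate 3 or wild-type replicate 3 or 4 was left out (limma adjusted p = 0.0546 to 0.0638). Ccl6, a chemokine of macrophages, rose 3.40-fold (1.77 ± 0.27, limma adjusted p = 0.0276), a call lost when Npc1-/- replicate 1, 2 or 4 or wild-type replicate 4 was left out (0.0917 to 0.113). Ccl6 lies in the stretch of chromosome 11 described above.

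Fewer genes were called in the remaining lists. In antigen presentation 2 of 18 rose, B2m, the light chain of class I molecules, 2.10-fold (limma adjusted p = 0.00623) and the immunoproteasome subunit Psmb8 1.86-fold (limma adjusted p = 0.00661), and neither passed with slide as a block (0.0679 and 0.116). In macrophage lipid handling 1 of 18 rose, the fatty acid binding protein Fabp4 at 4.63-fold (log2 2.21, limma adjusted p = 0.0302). Fabp4 did not pass with slide as a block (log2 1.97, limma adjusted p = 0.222) or without any array but wild-type replicate 2 (0.0761 to 0.122). In cytokines and inflammasome 1 of 12 rose, the TNF-induced gene Tnfaip2 at 2.09-fold or more, with 3 wild-type arrays above background (fitted log2 1.11, limma adjusted p = 0.0466). Tnfaip2 did not pass with slide as a block (log2 1.13, limma adjusted p = 0.239) or without any of the 8 arrays (0.0548 to 0.124). None of 20 matrix protease and inhibitor genes and none of 16 cell division genes passed. Their medians were 0.16 (0.07 to 0.26 over the slide block, normexp and left-out arrays) and -0.18 (-0.27 to -0.14).

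**Figure D5:**
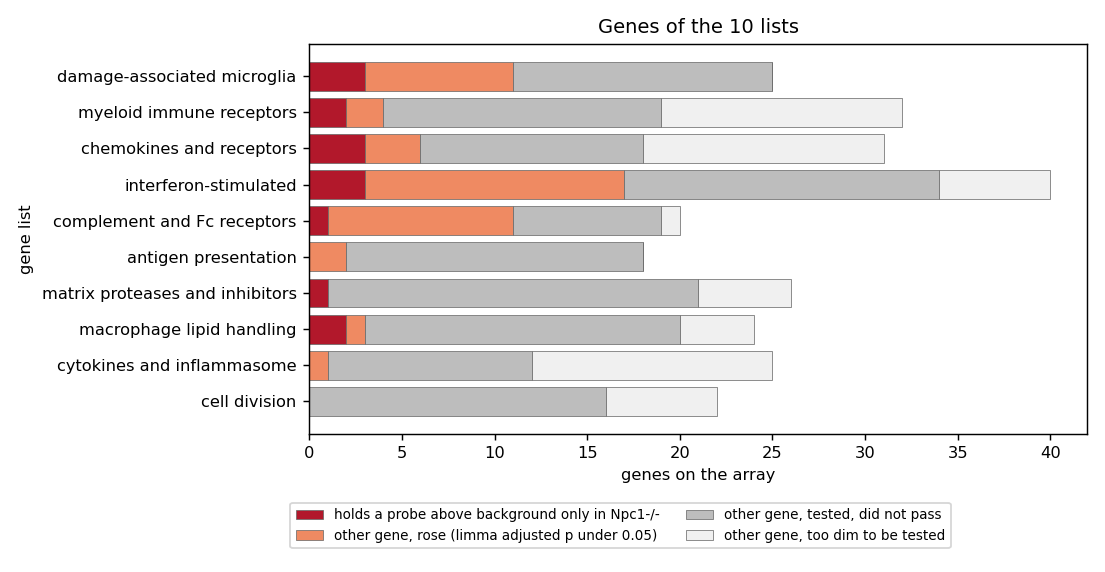
Genes on the array in each of the 10 lists, as bars of gene counts: dark red, genes with a member probe; orange, other genes that rose by limma; grey, other tested genes that did not pass; pale, other genes too dim to be tested. Interferon-stimulated genes had 14 of 31 other tested genes rise and complement and Fc receptors 10 of 18, whereas no matrix protease or cell division gene passed.

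Marker lists of cell types that whole cerebellum could hold were summed as linear signal divided by each array's 75th percentile. The microglia sum was 14.9 to 19.2 in Npc1-/- and 10.4 to 11.7 in wild type, without overlap, and 1 of its 11 genes, Fcrls, rose by limma. T cell sums overlapped, at 0.62 to 0.86 and 0.60 to 0.97, with 0 of 5 tested genes called and Cd3d, Cd3g, Cd8a and Cd247 on no array. B cell sums were 0.21 to 0.44 and 0.26 to 0.30, with Cd79b called higher and Cd79a and Blk on no array. Neutrophil sums were 0.92 to 1.30 and 0.74 to 1.21, with Csf3r called higher and Elane, Mmp8 and Retnlg on no array.

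For monocytes and border macrophages the sums were 0.98 to 1.49 and 0.84 to 1.43, with Ms4a7 and Plac8 called higher, Pf4 called lower and Ccr2 on no array. Mast cell sums were 0.96 to 1.08 and 0.87 to 1.09. Choroid plexus sums were uneven within both genotypes, at 2.63 to 14.4 and 6.89 to 10.8, and fibroblast sums were 24.2 to 32.6 and 20.4 to 24.5. Endothelial sums were 19.2 to 22.2 and 18.5 to 21.0, erythroid sums 198 to 304 and 136 to 315, and neuron sums 366 to 444 and 412 to 515. What part the shifts in these sums had in the members was not tested.

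On the Illumina arrays, whose table numbers its probes without gene names and so cannot be linked to the members, the same kind of rule was applied with the deposited detection p-value under 0.01. Of 46643 probes, 14 (0.03%) were detected on all 4 Npc1-/- and no wild-type arrays, and 9 (0.0193%) showed the opposite pattern. For the 14, the ratio of mean signals was 1.37 to 7.93 with a median of 1.66, and no groups overlapped (1.18% of all probes had every Npc1-/- signal above every wild-type signal). For the 9, the ratio of wild-type to Npc1-/- means was 1.07 to 1.66, and the groups of 5 did not overlap (0.695% of all probes in that direction). Detection chose these probes and the lower group was not detected, so the ratios are descriptions and nothing is read from the shares. With detection at under 0.01 in one genotype and at 0.05 or over in the other, the counts were 1 and 0. Leaving out an array relaxes the rule at 0.01, so neither count could fall, and gave 16 to 24 and 10 to 34. The first count was 22, 23, 24 and 22 without Npc1-/- replicates 1, 3 and 4 and wild-type replicate 3. The second was 15, 29 and 24 without Npc1-/- replicates 2, 3 and 4, and 21 and 34 without wild-type replicates 1 and 2.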

How the data were processed

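Agilent intensity values come from Feature Extraction 9.5, a scanner software, according to the submitters' processing notes. The deposited processed signals had background subtracted and spatial trends removed on each array, per the file headers, with no scaling across arrays. The deposited flags and surrogate values of each spot were used as given, per the file headers. The Illumina signals (intensity) and a detection p-value per probe and array were deposited without normalization, and the software is not given in the sources used here.

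Sample titles gave the group and replicate number of each array. Control spots were left out, outlier spots (74 to 115 per array) set to missing, spots of a probe averaged, and a mean flag of 0.5 or more counted as above background. Levels were scaled to the 75th percentile. A RefSeq table of GRCm38.p6 was used to update names (27 members by accession, 3 by symbol, 1 by synonym, 2 kept). The genotype comparison used limma 3.58.1 in R 4.3.3 (two-sided, Benjamini-Hochberg, threshold 0.05), over genes above background on at least 4 of 8 arrays, with the probe of highest mean signal per gene; p-values measure the spread between these arrays. The fit was tested on simulated data. Tables and plots used Python 3.11.15, pandas 2.3.3, numpy 2.4.6 and matplotlib 3.10.9.

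The members and the gene lists were chosen with earlier results of these data known. Genes were named by a rule: members with a symbol that are in a list or among the 20 largest bounds, the 3 nearest to the threshold on each side, and up to 2 other passing genes per list; members outside it are named only to account for all. Alternatives covered the detection rule, scaling, filter, slide, replicate block and each array left out. Slides numbered 4, with 2 scan days, and slide 1 held wild-type replicate 4 alone. Slide 3, with Npc1-/- replicates 1 and 4 and wild-type replicate 2, was scanned on a different day from the other slides. Correlations between arrays ran from 0.966 to 0.993.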

Additional observations from a re-analysis of the deposited data

Results flagged for a closer look

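In 66 groups of 4 values (33 probes in each genotype), 12 had a lowest or highest array far from the other 3, by a criterion that chance meets in about 5% of groups. The detection flags that chose the probes come from the same arrays, so this is a description of single arrays and not a test. Wild-type replicate 2 was the highest array in 5 of them: Ifi44l at -3.69, Icam1 at -3.86, Mmp12 at -5.83, Hpse at -6.05 and Cst7 at -5.95, the last 3 being surrogate values, whose level the additive error of that array sets. The other wild-type arrays far from their group were replicate 1 for BC089618 (-7.76) and replicate 3 for Ttll6 (-6.69) and Capn6 (-6.59), each the lowest. In Npc1-/- the lowest arrays were replicate 1 for Ccl5 (-4.78), replicate 4 for Ttll6 (-4.77) and replicate 3 for Angptl7 (-5.31), and the highest was replicate 4 for Napsa (-4.42).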

How the results depend on the processing

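The count of probes above background only in Npc1-/- was 23 with the positive-and-significant flag (Cst7 and Mmp12 shared with the 33), 43 with 1 scaled level common to all arrays (Gpnmb shared) and 36 to 83 with an array left out; the opposite pattern gave 1, 6 and 0 to 20. With common thresholds, chosen after the data were seen, wild-type replicate 2 at the highest threshold of the others gave 26 and 2. The members' median difference was 0.35 with normexp, which added 50 intensity units to each signal, and quantile normalization. It was 1.42 to 1.97 with an array left out. Genes higher over all genes tested numbered 82 with quantile normalization, 56 with no filter, 83 with probes above background on all 8 arrays, 37 with slide as a block and 52 to 144 with an array left out; genes lower numbered 3 with no filter, 1 with slide as a block and 2 to 8 with an array left out. Other list genes that rose numbered 21 with no filter, 21 with slide as a block and 22 to 43 with an array left out; in every setting 0 fell. Deviations of same-numbered Agilent arrays from their group means had correlations of 0.167, 0.014, -0.459 and 0.182. So few arrays cannot show whether the numbers pair the samples, and the labels do not say. With a replicate block 26 genes were higher, 1 lower, 11 other list genes rose and the members' median difference was 1.63. Illumina counts were 1 and 0 with a gap between thresholds, and 16 to 24 and 10 to 34 with an array left out. On both platforms leaving out an array relaxes the detection rule, so counts of detection patterns could not fall. The cause of these shifts was not tested, beyond there being fewer arrays or genes in a fit. With 4 arrays per genotype and signals near background, the members' differences are imprecise.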
